A study of Mus musculus with 18 samples.

Results

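The nuclear and mitochondrial genes for subunits of the respiratory chain and ATP synthase were followed across the 4 groups of laser-microdissected (LMD) colonic epithelium. Members were taken by name: mt-Nd, mt-Co, mt-Cyt and mt-Atp genes, Nduf names with an a, b, c, s or v and a number, Sdha to Sdhd, and names starting with Uqcr, Cox4 to Cox8 or Atp5. Of 55453 gene names in the tables, 106 met the rule. They comprised 13 mitochondrially encoded subunits, 88 nuclear names and 5 names with a pseudogene number. The nuclear names were 40 of complex I, 4 of complex II, 8 of complex III, 19 of complex IV and 17 of complex V, and 4 of them are annotated as processed pseudogenes (Cox6c2, Ndufa11b, Ndufb4c and Ndufs6b). After the filter on low counts, 11 mitochondrially encoded and 79 nuclear members were tested.

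All libraries came from female Swiss Webster mice given azoxymethane (AOM), a colon carcinogen, at 7 weeks of age and then 4 cycles of DSS (dextran sulfate sodium), a polymer in the drinking water that damages the mucosa. Each cycle, from 9 weeks on, meant 7 days of 2% DSS and 14 days of plain water, and every group shared this treatment. Mice on a basal chow with 2 mg/kg folic acid (FA) were moved at 11 weeks to chow with 0 or 8 mg/kg FA, were kept on it for 16 weeks and were examined at 27 weeks. The groups were non-dysplastic epithelium at 0 mg/kg (0ND, n = 4) and 8 mg/kg (8ND, n = 5), and polypoid dysplasia at 0 mg/kg (0P, n = 4) and 8 mg/kg (8P, n = 5). No group without AOM or DSS was analysed here. The areas were cut from fixed, embedded colon by histology. Nothing in the labels ties a library to 1 mouse, so p-values measure the spread between libraries, which may be partly technical.

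The respiratory chain passes electrons from NADH through complex I, or from succinate through complex II, to ubiquinone, then through complex III and cytochrome c to complex IV, which reduces oxygen. Complexes I, III and IV pump protons across the inner mitochondrial membrane, and complex V (ATP synthase) uses the gradient to make ATP. Most subunits are nuclear genes, whereas core subunits of all complexes but complex II are encoded by mitochondrial DNA and transcribed inside the organelle, and the colonic epithelium relies on this system to burn butyrate.

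Total counts on genes ran from 3500947 (8ND 4) to 17048524 (0P 4) per library. Between 22.0 and 40.7% of reads fell on no gene (26.8 to 39.0% in 0ND, 25.9 to 39.0% in 8ND, 22.0 to 33.4% in 0P and 30.6 to 40.7% in 8P). A further 40.1 to 62.2% had no unique alignment, and these were not counted for any gene. The 10 markers used for epithelium (Epcam, Cdh1, Krt8 and others) all passed the filter, and their summed level was 3306 to 5832 CPM (counts scaled to a common library total). Markers of other cells were also counted, with sums of 438 to 3415 CPM for smooth muscle and 516 to 9912 CPM for B and plasma cells. On the first principal component of the 500 most variable genes, all ND libraries were below 0 and all P libraries above 0, and 8ND 1 (-9.75) and 8ND 2 (-11.2) lay nearest to P among ND libraries, the other 7 being at -42.0 to -19.8. Marker sums are relative to total counts, while levels of single genes and sums over members below are CPM scaled by the trimmed mean of M values (TMM), and each is given library by library in the order of replicate number.

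The mitochondrially encoded subunits took 0.685 to 1.18% of the counts of a library and the nuclear subunits 0.287 to 0.478%. Within the mitochondrial set, levels formed 2 classes. Per kb of gene, mt-Atp8 (a short subunit of ATP synthase) stood at 2281 CPM per kb over all libraries, mt-Cytb (cytochrome b of complex III) at 1757, mt-Nd1 (of complex I) at 1435 and mt-Co1 (the catalytic subunit of complex IV) at 1336. The other complex I genes followed at 997 (mt-Nd6), 920 (mt-Nd5), 707 (mt-Nd2) and 444 (mt-Nd4). Lengths were those of the whole gene, including stretches that mt-Nd4, mt-Co1 and others share with nuclear copies (below). How far these stretches lowered the values was not tested. By contrast, mt-Atp6 reached 5.62, mt-Co2 2.37, mt-Co3 2.25, mt-Nd4l 0.524 and mt-Nd3 0.511 CPM per kb. The last-named 5 genes had 704, 288, 367, 33 and 29 counts in 18 libraries together, where each of the other 8 had at least 90731.

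Those 5 genes were also the ones with nearly complete copies in the nuclear genome. Of their 50-base windows, 98.0 to 100% occurred in another annotated transcript (GENCODE M21), against 0% for mt-Atp8, mt-Cytb, mt-Nd1 and mt-Nd6, 7.61% for mt-Nd5, 8.19% for mt-Nd2, 51.1% for mt-Co1 and 62.2% for mt-Nd4. Most copies lie together on chromosome 1 of mm10. Gm28661 (chr1:24614885-24615565) matched mt-Co2 at all 681 aligned bases, Gm28437 matched mt-Co3 at all 783 and Gm10925 matched mt-Atp6 at all 678, while Gm28438 differed from mt-Nd3 at 1 of 345. The copies were counted at similar low levels, with 340 counts on Gm28661, 354 on Gm28437 and 632 on Gm10925. For Gm10925 the total leans on 1 library, 8P 4, at 20.1 CPM beside 0.767 to 4.40 in the others. How many of the reads without a unique alignment came from these genes was not tested. A 60-base stretch is shown of a gene with few counts and its copy, and of one with many counts and its partial copy. Differing bases are in capitals, and the stretch of mt-Co1 was picked as the one with the most differences. The stretches start at base 1 of mt-Co2 (chrM:7013-7696) and at base 1054 of mt-Co1 (chrM:5328-6872).
mt-Co2: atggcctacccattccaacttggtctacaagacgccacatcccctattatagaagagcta
Gm28661: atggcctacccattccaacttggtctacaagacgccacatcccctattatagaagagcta
mt-Co1: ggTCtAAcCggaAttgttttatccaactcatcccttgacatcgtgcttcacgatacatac
Gm29216: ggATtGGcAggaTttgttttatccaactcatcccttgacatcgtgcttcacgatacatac
No base of the first pair differs, so a read from it fits both places. The second pair differs in 6 bases at the edge of the copy (counted from the first base of mt-Co1, T1056A, C1057T, A1059G, A1060G, C1062A and A1066T), and Gm29216 covers 492 of the 1545 bases of mt-Co1. These 6 are the only differences over the 492 aligned bases. The partial copy of mt-Nd4, Gm28439, matched at all 876 aligned bases of a gene of 1378, and mt-Nd4 had 117683 counts.

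**Figure D1:**
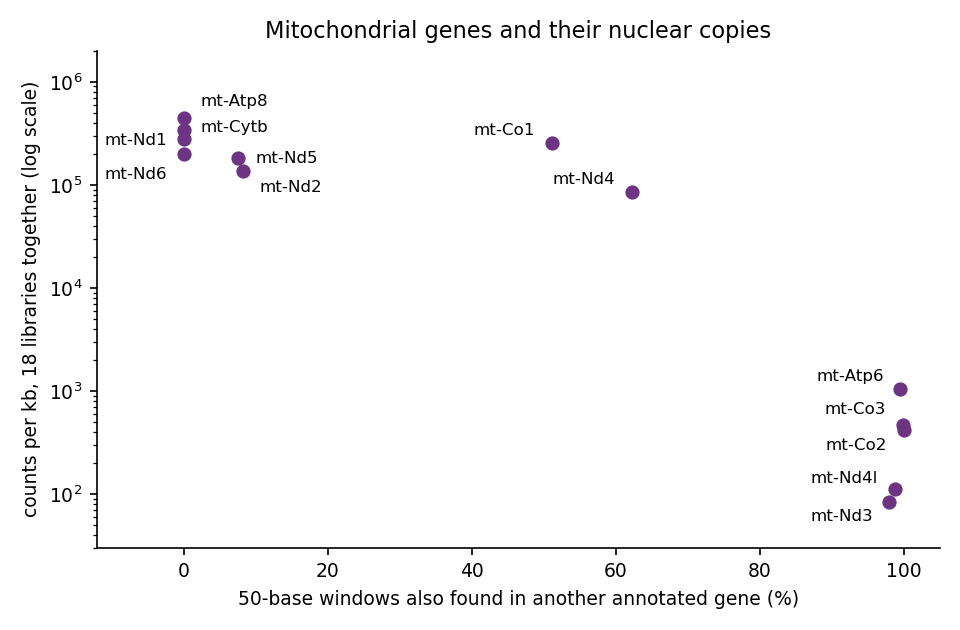
Each point is 1 of the 13 mitochondrially encoded genes, with the share of its 50-base windows found in another annotated gene (%) on the x axis and its counts per kb over the 18 libraries on a log y axis. The 5 genes with 98.0 to 100% of their windows shared lie at 83.3 to 1034 counts per kb and the other 8 at 85401 to 444760.

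Whether dysplasia differed from non-dysplastic epithelium in mitochondrially encoded transcripts was read from 0P vs 0ND and 8P vs 8ND. Summed over the 13 genes, the level was 8163, 9519, 10303 and 9793 CPM in 0ND and 10709.7, 7766, 9877 and 11662 in 0P. In 8ND it was 11302, 6537, 10139.8, 7915 and 10647, and in 8P 10146, 6441, 8152, 12902 and 8359. The groups overlapped throughout, with 8P 4 highest and 8P 2 lowest of all 18 libraries. In 0P vs 0ND, 1 of 11 tested members fell and 0 rose, where 15.7% of all 20787 tested genes fell and 15.9% rose (edgeR quasi-likelihood test, adjusted p under 0.05). In 8P vs 8ND, again 1 fell and 0 rose, beside 14.3% and 13.9% of all genes. The median log2 fold change of the 11 was 0.13 and 0.03, beside -0.03 and 0.0019 over all genes. Because LMD tissue was lysed in bulk, fewer cells of a type and less RNA per cell cannot be told apart here.

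The member that fell in 0P vs 0ND was mt-Atp6, the proton channel subunit of ATP synthase. It stood at 4.38, 8.62, 5.78 and 5.07 CPM in 0ND and at 3.25, 1.76, 1.78 and 2.73 in 0P. Every 0P library was below every 0ND library, with a log2 fold change of -1.29 (SE 0.38, adjusted p = 0.0133). In 8ND it was 5.10, 3.16, 5.14, 2.93 and 4.92 CPM and in 8P 2.93, 1.85, 2.35, 5.82 and 1.30, which overlapped, and the log2 fold change was -0.57 (SE 0.34, adjusted p = 0.227). The gene had 704 counts in all and has its copy on chromosome 1, and 99.5% of its 50-base windows occur in another annotated transcript. Reads that fit both places are missing from its counts. The gene mt-Atp8, which overlaps it on mitochondrial DNA and had 90731 counts, was at 0.44 in 0P vs 0ND and did not pass. Whether the fall holds for the whole mt-Atp6 transcript was not tested. The call was lost under a minimum count of 50, which left mt-Atp6 untested.

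The member that fell in 8P vs 8ND was mt-Co1, at 2432, 1712, 2705, 1914 and 2793 CPM in 8ND and 1894, 1421, 1553, 2160.4 and 1672 in 8P. The 2 ranges overlapped, and the log2 fold change was -0.41 (SE 0.14, adjusted p = 0.0341). In 0ND it was 2055, 2322, 2446 and 2443 and in 0P 2038, 1679.8, 1835 and 2084, with a log2 fold change of -0.28 (SE 0.16, adjusted p = 0.192). The call in 8P vs 8ND was lost on leaving out any 1 of 8ND 1, 8ND 3, 8ND 5, 8P 2, 8P 3 or 8P 5.

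The remaining well-counted genes did not pass the test in either comparison. For mt-Cytb, the values were 1744, 2062, 2129 and 2082 CPM in 0ND, 2430.3, 1623, 2026 and 2518 in 0P, 2367, 1374, 2201, 1606 and 2139.9 in 8ND and 2139.6, 1416, 1732, 2783 and 1815 in 8P. All 4 groups overlapped, and the log2 fold changes were 0.10 (SE 0.20, adjusted p = 0.744) and 0.03 (SE 0.18, adjusted p = 0.923). Over mt-Nd1, mt-Nd2, mt-Nd4, mt-Nd5, mt-Nd6 and mt-Atp8 the log2 fold changes ran from 0.03 to 0.44 in 0P vs 0ND and from 0.0050 to 0.35 in 8P vs 8ND. Of the other genes with few counts, mt-Co2 was at 0.08 (SE 0.47, adjusted p = 0.922) in 0P vs 0ND and -0.52 (SE 0.44, adjusted p = 0.411) in 8P vs 8ND, and mt-Co3 at 1.21 (SE 0.71, adjusted p = 0.215) and -1.47 (SE 0.69, adjusted p = 0.125), while mt-Nd3 and mt-Nd4l were not tested. Library 8P 4 was far above the rest of its group for mt-Atp8 (1018 CPM beside 236 to 313) and mt-Nd6 (994 beside 331 to 487). The 2 mitochondrial ribosomal RNAs, which are transcribed from the same DNA, took 6.18 to 14.6% of counts, and neither passed in either comparison.

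The nuclear subunits had lower mean levels in dysplasia at both doses. Their summed level was 3631, 4904, 4179 and 4784 CPM in 0ND and 3568, 3254, 3375 and 4162 in 0P. It was 4377, 3439, 5136, 3474 and 4846 CPM in 8ND and 2892, 3165, 2726, 3634 and 2709 in 8P. The ND and P ranges overlapped at both doses, with 0ND 1, 8ND 2 and 8ND 4 the low ND libraries and 0P 4 and 8P 4 the high P libraries. As means, the level was 4375 ± 589 CPM (SD, n = 4) in 0ND, 3590 ± 403 (n = 4) in 0P, 4254 ± 777 (n = 5) in 8ND and 3025 ± 386 (n = 5) in 8P. The ratio of nuclear to mitochondrial summed levels was 0.464 ± 0.048 in 0ND, 0.363 ± 0.039 in 0P, 0.463 ± 0.055 in 8ND and 0.343 ± 0.086 in 8P. The 8P value included 1 library, 8P 2, at 0.491, while the other 4 lay between 0.282 and 0.334.

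**Figure D2:**
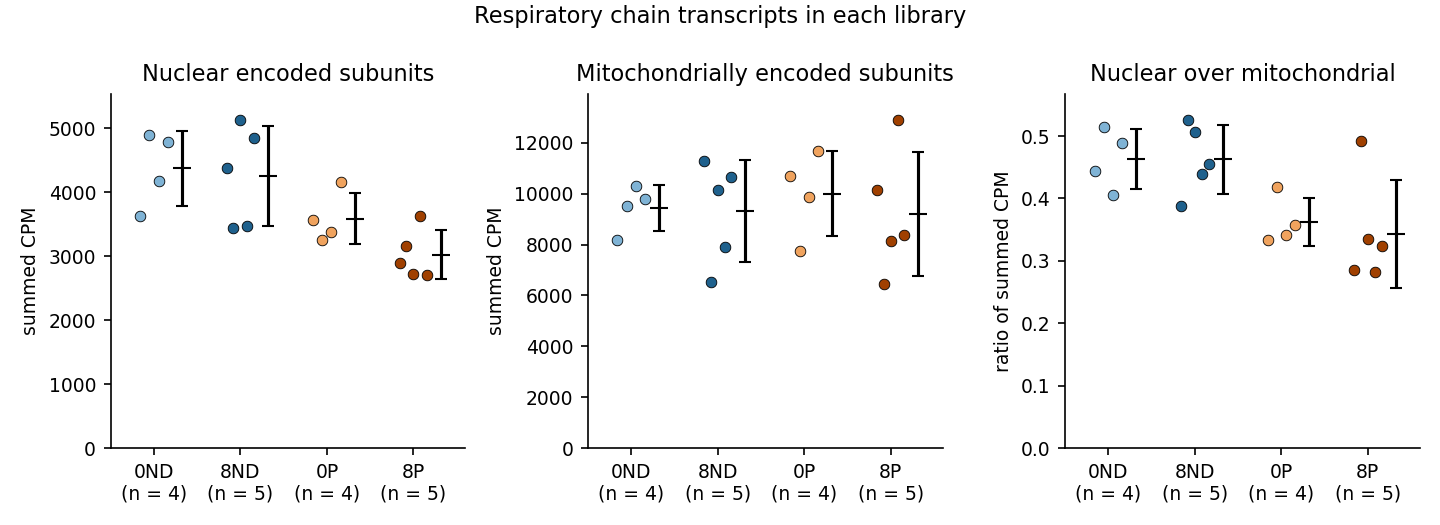
Each point is 1 library, with the TMM-scaled CPM summed over the 88 nuclear members (left) and the 13 mitochondrially encoded members (middle), and their ratio (right); black bars are mean ± SD. The nuclear sum and the ratio have lower means in 0P and 8P than in 0ND and 8ND, while the mitochondrial sums overlap in all 4 groups.

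Gene by gene, 17 of 79 nuclear members fell and 2 rose in 0P vs 0ND. The share that fell was not far from the 15.7% of all genes, and fewer rose than the 15.9% of all genes. In 8P vs 8ND, 41 of 79 fell and 1 rose, where 14.3% and 13.9% of all genes did. Counting both directions, 19 and 42 members passed, beside 31.6 and 28.2% of all genes. The median log2 fold change was -0.26 in 0P vs 0ND and -0.51 in 8P vs 8ND, beside -0.03 and 0.0019 over all genes. Values were below 0 for 68 and 74 of the 79 members. Without 8ND 1 and 8ND 2, 46 nuclear members passed in 8P vs 8ND. The 2 comparisons use separate libraries, and 16 members fell in both, 1 rose in both, 2 passed in 0P vs 0ND but not in 8P vs 8ND, and 25 the other way round. The share of all genes that fell in both was not counted. The 16 are thus not shown to be more than among genes in general. Few changes were large, since 2 members in each comparison passed the test with a change of at least 2-fold. Groups did not overlap for 15 lower and 2 higher members in 0P vs 0ND (all genes: 16.1% and 16.2%) and for 18 lower and 0 higher members in 8P vs 8ND (8.94% and 8.26%). By this measure the lower members of 0P vs 0ND were about as frequent as lower genes in general.

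**Figure D3:**
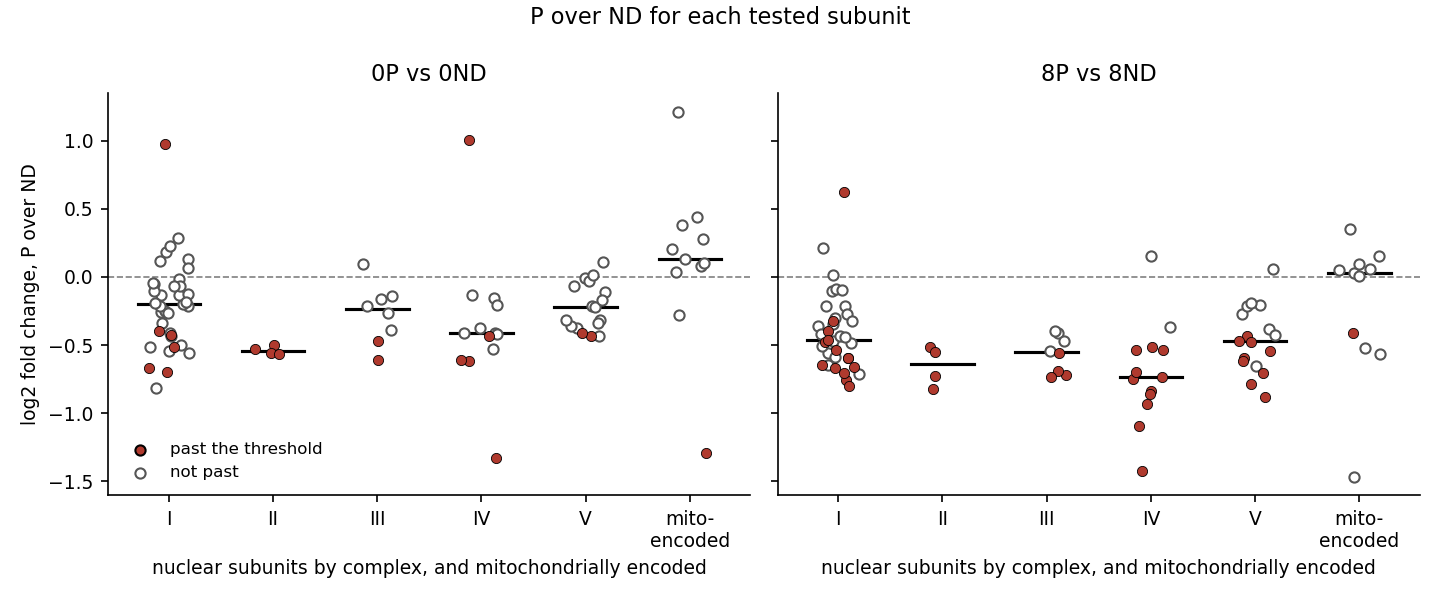
Each point is 1 tested subunit with its log2 fold change of P over ND on the y axis, grouped by complex, for 0P vs 0ND (left) and 8P vs 8ND (right); filled points passed an adjusted p of 0.05 and bars are medians. The medians of all 5 nuclear complexes lie below 0 in both panels (-0.54 to -0.20 on the left, -0.74 to -0.46 on the right), whereas those of the mitochondrially encoded genes are 0.13 and 0.03.

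Complex II, succinate dehydrogenase, also belongs to the citrate cycle and has no mitochondrially encoded subunit. All 4 of its genes fell in both comparisons, where 15.7% (0P vs 0ND) and 14.3% (8P vs 8ND) of all genes fell. Sdhb, the iron-sulfur subunit (chr4:140961203-140979193), was at 33.9, 47.8, 37.4 and 45.5 CPM in 0ND and 27.6, 27.3, 30.6 and 26.1 in 0P, and at 42.5, 33.7, 49.98, 35.4 and 43.7 in 8ND and 22.99, 26.5, 19.1, 26.9 and 20.7 in 8P. Neither pair of groups overlapped, and the log2 fold changes were -0.56 (SE 0.15, adjusted p = 0.00703) and -0.82 (SE 0.13, adjusted p = 0.000168). Sdhd, a membrane anchor that binds ubiquinone (chr9:50596357-50603812), was at 59.2, 91.8, 73.8 and 88.6 CPM in 0ND, 55.6, 48.5, 47.1 and 60.4 in 0P, 88.5, 69.4, 95.4, 73.2 and 89.9 in 8ND and 45.98, 51.02, 57.6, 50.9 and 45.8 in 8P. Only 0ND 1 and 0P 4 crossed, and the changes were -0.56 (SE 0.14, adjusted p = 0.00449) and -0.73 (SE 0.13, adjusted p = 0.00029).

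Sdhc, the other membrane anchor (chr1:171127165-171150603), was at 44.9, 46.6, 51.9 and 55.7 CPM in 0ND, 35.8, 34.1, 35.2 and 32.9 in 0P, 45.5, 46.9, 61.7, 41.8 and 57.4 in 8ND and 36.6, 35.9, 33.6, 36.9 and 30.3 in 8P. The ranges were separate at both doses, with changes of -0.53 (SE 0.12, adjusted p = 0.00252) and -0.55 (SE 0.11, adjusted p = 0.000981). Sdha, the flavoprotein that oxidizes succinate (chr13:74322254-74350280), was at 168, 222, 204 and 219 CPM in 0ND, 143, 126, 124 and 181 in 0P, 185, 158, 202, 139 and 218 in 8ND and 120.4, 118, 118, 156 and 122 in 8P. Here 0P 4 and 8P 4 reached into the ND ranges, and the changes were -0.50 (SE 0.15, adjusted p = 0.0152) and -0.51 (SE 0.14, adjusted p = 0.00753). The call for Sdha in 0P vs 0ND was lost without 0P 2 and without 0P 3.

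Members that move together raise the question of what their promoters share. RefSeq promoter windows (GRCm38.p6, 250 bases before to 50 after the start) were matched by symbol for 65 of the 79 tested nuclear members, giving 70 windows. On either strand, the 10-letter core bound by NRF1, searched with 1 free base, occurred in 25.7% of them and in 8.07% of the 16115 windows of the other tested genes. CCGGAAG, an ETS motif of the kind GABP binds, occurred in 24.3% beside 14.5%, and AAGATGGCG, a YY1 motif, in 10.0% beside 2.34%. TCAAGGTCA, an ERR motif, occurred in only 2 of the 70 windows (2.86%), beside 0.273%. The ETS motif can overlap the YY1 motif by 3 bases, and each was searched on its own, so that a window can count for more than 1. At least 1 of the first 3 was present in 16 of the 35 windows of members that fell in 8P vs 8ND and in 20 of the 35 windows of members that did not. These shares were 45.7 and 57.1%. A match is a match of letters only. The first 270 bases of 5 windows are shown for 3 subunits of complex II, for Cox6a1 and for Ndufa4, the 1 subunit that rose in both comparisons, with motif matches on either strand in capitals.
Sdha promoter, chr13:74350221-74350490, minus strand: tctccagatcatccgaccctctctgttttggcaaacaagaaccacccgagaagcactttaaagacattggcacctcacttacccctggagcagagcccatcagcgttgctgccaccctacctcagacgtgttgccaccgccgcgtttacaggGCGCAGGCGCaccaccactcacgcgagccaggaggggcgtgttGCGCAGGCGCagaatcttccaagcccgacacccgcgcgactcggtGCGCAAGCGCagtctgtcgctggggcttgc
Sdhb promoter, chr4:140961021-140961290, plus strand: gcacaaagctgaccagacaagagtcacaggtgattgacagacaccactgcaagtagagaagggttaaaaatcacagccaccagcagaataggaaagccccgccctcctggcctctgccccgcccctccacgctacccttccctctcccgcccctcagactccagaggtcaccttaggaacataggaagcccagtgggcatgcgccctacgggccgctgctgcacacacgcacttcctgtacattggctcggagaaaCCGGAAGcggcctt
Sdhd promoter, chr9:50603830-50604099, minus strand: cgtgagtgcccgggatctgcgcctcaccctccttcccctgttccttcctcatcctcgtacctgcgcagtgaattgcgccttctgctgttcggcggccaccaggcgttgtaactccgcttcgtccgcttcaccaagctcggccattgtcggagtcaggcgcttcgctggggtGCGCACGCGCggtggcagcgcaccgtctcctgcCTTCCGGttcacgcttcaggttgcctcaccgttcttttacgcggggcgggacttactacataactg
Cox6a1 promoter, chr5:115348939-115349208, minus strand: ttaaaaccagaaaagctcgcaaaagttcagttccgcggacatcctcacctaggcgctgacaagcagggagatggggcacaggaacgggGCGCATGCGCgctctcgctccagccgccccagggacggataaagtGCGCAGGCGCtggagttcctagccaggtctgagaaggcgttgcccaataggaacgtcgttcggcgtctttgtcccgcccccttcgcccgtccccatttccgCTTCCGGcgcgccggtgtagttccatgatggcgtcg
Ndufa4 promoter, chr6:11907431-11907700, minus strand: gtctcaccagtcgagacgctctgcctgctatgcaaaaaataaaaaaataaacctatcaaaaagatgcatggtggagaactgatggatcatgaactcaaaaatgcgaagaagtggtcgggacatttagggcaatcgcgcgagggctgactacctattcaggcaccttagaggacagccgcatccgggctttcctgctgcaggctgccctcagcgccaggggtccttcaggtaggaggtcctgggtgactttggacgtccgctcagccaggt
Over the whole windows, Sdha holds 3 NRF1 cores, Sdhb 1 ETS motif, Sdhd 1 of each and 1 ERR motif within the last 30 bases, which are not shown, and Cox6a1 2 NRF1 cores and 1 ETS motif. The letters searched are not in the window of Ndufa4. They are also absent from the windows of Ndufb5, Cox5a, Cox7a1 and Uqcrfs1, which fell in both comparisons. Of all 70 windows, 36 held at least 1 of the first 3 motifs, so the 5 shown do not stand for the rest.

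**Figure D4:**
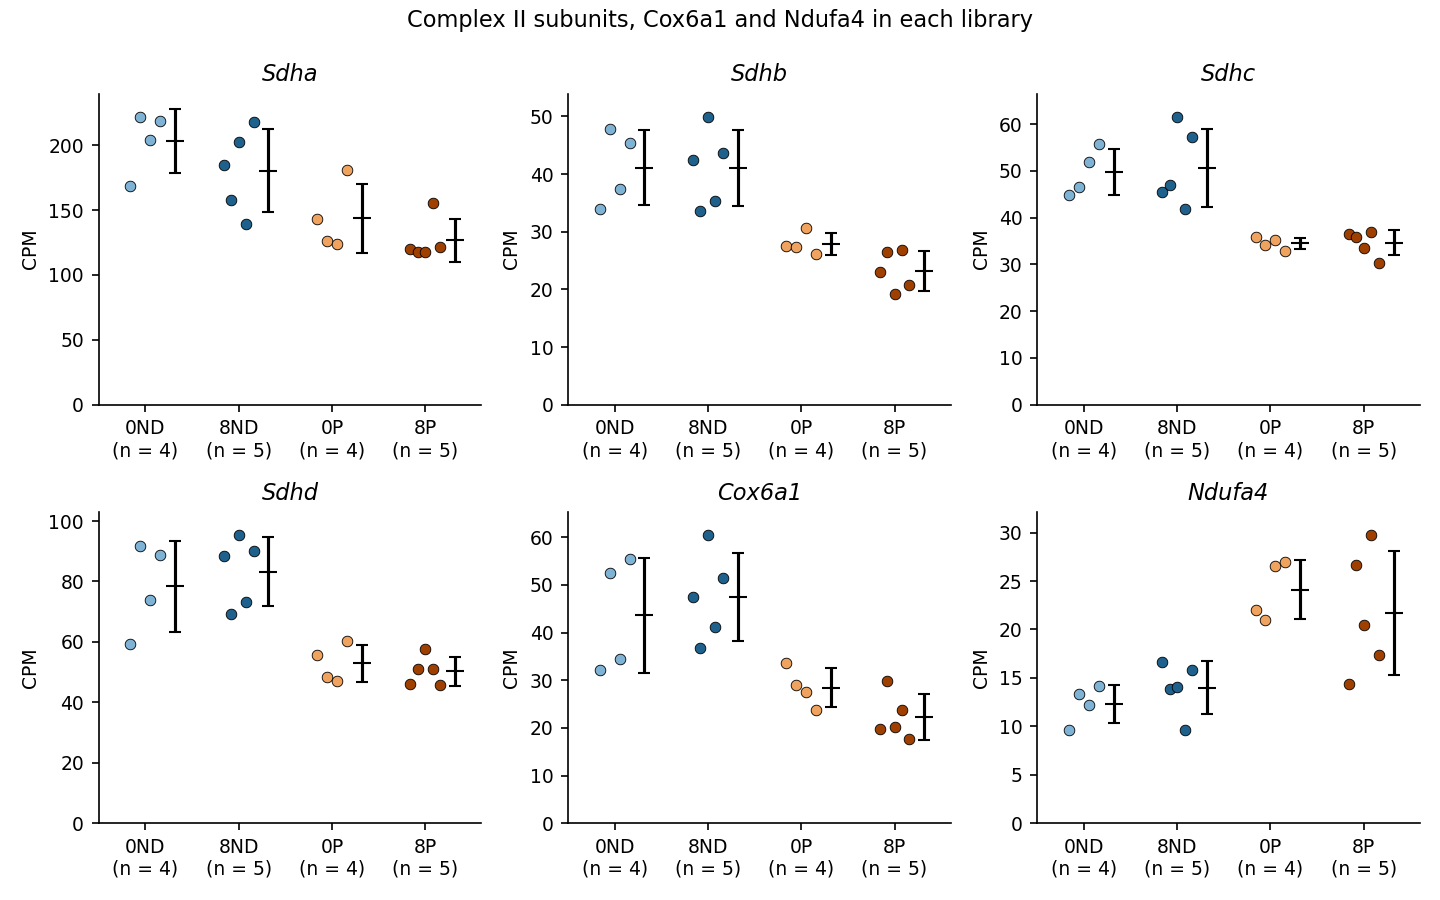
Each panel shows the TMM-scaled CPM of 1 gene in every library (points) with the mean ± SD of each group (black bars). Sdha, Sdhb, Sdhc, Sdhd and Cox6a1 have lower means in 0P and 8P than in 0ND and 8ND, and Ndufa4 is at 9.66 to 14.1 CPM in 0ND and 20.9 to 26.9 CPM in 0P.

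Complex IV, cytochrome c oxidase, had the lowest median of the 5 complexes at 8 mg/kg FA. In 8P vs 8ND, 11 of 13 tested members fell, 0 rose and the median log2 fold change was -0.74, where 14.3% of all genes fell and 13.9% rose. In 0P vs 0ND 4 fell, 1 rose and the median was -0.41, beside 15.7% and 15.9% of all genes. Cox6a1 (chr5:115345642-115348981), the common form of subunit 6a, was at 47.4, 36.7, 60.5, 41.3 and 51.5 CPM in 8ND and 19.8, 29.9, 20.2, 23.7 and 17.7 in 8P, with no overlap and a change of -1.10 (SE 0.18, adjusted p = 0.000189). In 0ND it was 32.1, 52.6, 34.5 and 55.5 and in 0P 33.5, 29.00, 27.5 and 23.7, and the change was -0.62 (SE 0.20, adjusted p = 0.0239). That second call was lost without 0ND 2, 0ND 4, 0P 3 or 0P 4, and with a replicate block.

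Cox8a, the common form of the smallest subunit and the best-expressed nuclear gene of complex IV per length (106 CPM per kb), was at 65.1, 94.95, 66.1 and 102 CPM in 0ND, 56.4, 56.2, 47.9 and 53.8 in 0P, 77.5, 62.7, 104, 76.1 and 96.2 in 8ND and 42.9, 54.6, 37.1, 42.5 and 41.5 in 8P. The groups were separate at both doses, with changes of -0.61 (SE 0.17, adjusted p = 0.00871) and -0.93 (SE 0.15, adjusted p = 0.000167). Cox4i1 and Cox5b, both structural subunits, fell in 8P vs 8ND with log2 fold changes of -0.84 (SE 0.21, adjusted p = 0.00499) and -0.86 (SE 0.25, adjusted p = 0.0141), and their values in 0P vs 0ND were -0.41 (SE 0.23, adjusted p = 0.189) and -0.53 (SE 0.27, adjusted p = 0.155). Cox4i1 stood at 107, 70.9, 125, 72.7 and 119 CPM in 8ND and 49.2, 61.1, 43.8, 78.5 and 43.9 in 8P, with overlap between 8P 4 and the low libraries 8ND 2 and 8ND 4. Cox7b, a small subunit (61.6 CPM per kb), fell in 8P vs 8ND with a log2 fold change of -0.54 (SE 0.19, adjusted p = 0.0351), a call that was lost without any 1 of 8ND 3, 8ND 5, 8P 1, 8P 2, 8P 3 or 8P 5.

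Several complex IV subunits have a second form that is typical of heart, skeletal muscle, lung or testis, and these were read beside the common forms. Of 8 such names (Cox4i2, Cox6a2, Cox6b2, Cox7a1, Cox7b2, Cox8b, Cox8c and Ndufa4l2), 2 passed the filter. Totals for the other 6 were 60 counts in 18 libraries for Cox4i2 and for Ndufa4l2, 9 for Cox7b2, 6 for Cox8b, 5 for Cox6a2 and 2 for Cox8c. Cox7a1, the heart and muscle form of subunit 7a, was at 1.91, 2.99, 2.12 and 2.59 CPM in 0ND and 1.05, 0.691, 0.958 and 1.05 in 0P, and at 1.52, 1.11, 2.14, 1.33 and 3.28 in 8ND and 0.509, 0.977, 0.81, 0.702 and 0.555 in 8P. Neither pair overlapped, and the changes were the lowest of any nuclear member, -1.33 (SE 0.35, adjusted p = 0.00627) and -1.43 (SE 0.32, adjusted p = 0.00269). Smooth muscle markers fell alongside it, 10 of 10 in both comparisons, from a summed 1399 to 3415 CPM in 0ND to 581 to 1026 in 0P and from 1389 to 2308 in 8ND to 438 to 910 in 8P, with no marker at 0. The 10 of 10 stand beside 15.7% of all genes that fell in 0P vs 0ND and 14.3% in 8P vs 8ND. What part smooth muscle had in the values of Cox7a1 and of the other members was not tested.

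Cox6b2, known as a testis form of subunit 6b, was at 1.46, 1.41, 1.18 and 1.73 CPM in 0ND and 2.28, 2.84, 4.38 and 2.36 in 0P. The groups were separate, and the change was 1.01 (SE 0.36, adjusted p = 0.0364). In 8ND it was 2.21, 2.92, 1.61, 2.66 and 1.33 and in 8P 2.36, 4.34, 1.70, 1.54 and 2.04, with overlap and a log2 fold change of 0.16 (SE 0.31, adjusted p = 0.753). The call at 0 mg/kg was lost without 0ND 1, 0ND 2, 0ND 3, 0P 2 or 0P 3, by limma-voom and without a filter on low counts, and the gene was not tested under a minimum count of 50. Among the 8 names listed as common forms (Cox4i1, Cox6a1, Cox6b1, Cox7a2, Cox7a2l, Cox7b, Cox8a and Ndufa4), 7 fell and 1 rose in 8P vs 8ND, and 2 fell and 1 rose in 0P vs 0ND. The list holds both Cox7a2 and its paralog Cox7a2l, so not each name is the common form of its own subunit. The shares of all genes were 14.3% and 13.9% in 8P vs 8ND, and 15.7% and 15.9% in 0P vs 0ND.

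The member that rose in both was Ndufa4 (chr6:11900292-11907497), which was named as a complex I gene and is now also known as a subunit of complex IV. By its name it is counted under complex I here. It was at 9.66, 13.4, 12.2 and 14.1 CPM in 0ND and 22.03, 20.9, 26.5 and 26.9 in 0P. Every 0P library was above every 0ND library, and the change was 0.97 (SE 0.21, adjusted p = 0.00161). In 8ND it was 16.7, 13.8, 14.02, 9.58 and 15.8 and in 8P 14.3, 26.7, 20.4, 29.7 and 17.4, where 8P 1 lay within the 8ND range, and the change was 0.62 (SE 0.19, adjusted p = 0.0184). This second call was lost without 8P 4 and with a replicate block.

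Complex I, NADH dehydrogenase, has the most subunits. In 0P vs 0ND 5 of 37 tested members fell and 1 rose (median -0.20), and in 8P vs 8ND 13 fell and 1 rose (median -0.46). Over all genes, 15.7% fell and 15.9% rose in 0P vs 0ND, and 14.3% and 13.9% in 8P vs 8ND. The falls in 0P vs 0ND were thus no more frequent than in general. Ndufs1 (chr1:63143596-63176833), its largest iron-sulfur subunit, was at 107, 110.4, 116 and 120.4 CPM in 0ND and 83.7, 80.3, 83.9 and 90.4 in 0P, and at 101, 102, 112, 91.03 and 113 in 8ND and 85.97, 75.01, 85.8, 87.6 and 81.2 in 8P. It did not overlap at either dose and fell in both, with small changes of -0.42 (SE 0.091, adjusted p = 0.00134) and -0.32 (SE 0.081, adjusted p = 0.00577). Ndufa6, an accessory subunit, was at 45.2, 62.4, 50.5 and 64.02 CPM in 0ND, 38.5, 32.5, 36.8 and 32.1 in 0P, 47.99, 41.6, 51.4, 29.5 and 57.3 in 8ND and 31.4, 35.7, 29.8, 29.7 and 25.3 in 8P. Only 8ND 4 lay inside a P range, and the changes were -0.67 (SE 0.17, adjusted p = 0.0045) and -0.59 (SE 0.15, adjusted p = 0.00578).

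Ndufb2 (chr6:39592574-39603382), another accessory subunit, fell in 0P vs 0ND. It was at 21.7, 21.3, 24.6 and 30.3 CPM in 0ND and 16.1, 15.2, 15.3 and 13.8 in 0P, with no overlap and a change of -0.70 (SE 0.14, adjusted p = 0.000753). In 8ND it was 23.4, 24.02, 17.4, 23.2 and 20.2 and in 8P 19.9, 21.1, 22.6, 17.9 and 19.3, which overlapped, with a log2 fold change of -0.10 (SE 0.12, adjusted p = 0.586). Ndufv2, a core gene of the complex, did not pass in either comparison and had log2 fold changes of -0.18 (SE 0.15, adjusted p = 0.389) and 0.01 (SE 0.13, adjusted p = 0.952). Ndufb10, an accessory subunit at 31.9 CPM per kb, fell in 8P vs 8ND (log2 fold change -0.70, SE 0.17, adjusted p = 0.0047) and was at -0.50 (SE 0.19, adjusted p = 0.0539) in 0P vs 0ND. The tested pseudogene name Ndufb4c, all of whose 50-base windows occur in Ndufb4, had 128 counts and did not pass.

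Complex III carries electrons from ubiquinol to cytochrome c. In 0P vs 0ND 2 of 8 members fell and 0 rose (median -0.24), beside 15.7% and 15.9% of all genes. In 8P vs 8ND 4 fell and 0 rose (median -0.55), beside 14.3% and 13.9%. Uqcrfs1 (chr13:30540308-30545362), the Rieske iron-sulfur protein, was at 62.8, 78.4, 70.00 and 75.4 CPM in 0ND, 47.1, 44.6, 45.4 and 50.7 in 0P, 67.7, 47.3, 79.95, 53.8 and 70.3 in 8ND and 32.3, 37.6, 37.1, 46.3 and 38.7 in 8P. The ranges were separate at both doses, with changes of -0.61 (SE 0.14, adjusted p = 0.00299) and -0.73 (SE 0.13, adjusted p = 0.000337). Uqcrc2, a core protein, was the other member that fell in both and changed by -0.47 (SE 0.12, adjusted p = 0.0048) and -0.69 (SE 0.11, adjusted p = 9.73e-05). The small subunits Uqcrb and Uqcrh, which had the highest levels per length (62.3 and 59.0 CPM per kb), were at -0.41 (SE 0.18, adjusted p = 0.0876) and -0.47 (SE 0.21, adjusted p = 0.111) in 8P vs 8ND and did not pass.

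Complex V makes ATP. Of its 17 tested nuclear members 2 fell and 0 rose in 0P vs 0ND (median -0.22), no more often than the 15.7% and 15.9% of all genes. In 8P vs 8ND 9 fell and 0 rose (median -0.47), beside 14.3% and 13.9%. Atp5b, the catalytic beta subunit (82.3 CPM per kb), was at 413, 326, 493, 324 and 431 CPM in 8ND and 272, 308, 233, 309 and 242 in 8P. It did not overlap and changed by -0.54 (SE 0.13, adjusted p = 0.00471), while in 0P vs 0ND the value was -0.22 (SE 0.15, adjusted p = 0.291). Atp5a1, the alpha subunit and the nuclear member with the highest level per length (128 CPM per kb), changed by -0.44 (SE 0.14, adjusted p = 0.0253) in 8P vs 8ND, a call lost without 8ND 3, 8ND 5, 8P 1 or 8P 5, and with a replicate block. Atp5d, the delta subunit, was at 58.6, 46.7, 76.2, 54.03 and 65.6 CPM in 8ND and 30.1, 45.3, 28.7, 32.9 and 26.6 in 8P. These groups were separate, with the largest fall in complex V, -0.88 (SE 0.17, adjusted p = 0.000692). Atp5g3, which encodes the c subunit of the rotating ring, was at 69.6, 55.00, 88.9, 57.2 and 76.8 in 8ND and 42.2, 48.5, 35.8, 43.6 and 31.6 in 8P, also separate, and changed by -0.79 (SE 0.15, adjusted p = 0.000769).

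The members share few gross features with each other. They lie on 19 chromosomes, with at most 9 on 1. Their transcripts are short, with a median of 1578 bases of merged exons beside 3598 over all tested genes. Across the 78 nuclear members with a length, which share the same libraries, Spearman's rho between length and log2 fold change was -0.17 in 0P vs 0ND and 0.24 in 8P vs 8ND. The sign differed between the 2 comparisons. Because 48 of 87 nuclear members with a transcript share at least 1 window of 50 bases with another gene, the counts were repeated on the 34 tested members that share none. Of these 9 fell in 0P vs 0ND and 20 in 8P vs 8ND, beside 15.7% and 14.3% of all genes. Their medians were -0.31 and -0.54. Both medians were slightly further from 0 than those of all 79.

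The effect of dose on these genes was read from 8ND vs 0ND and 8P vs 0P. In 8ND vs 0ND, 0 of 90 members passed, beside 0.0481% of all genes (0.0289% higher and 0.0192% lower), 0 had an unadjusted p under 0.05 (all genes: 2059 of 20787), and the nuclear median was -0.01. The smallest p among nuclear members belonged to Ndufa6 (log2 fold change -0.28, SE 0.16, adjusted p = 0.621), Cox6b2 (log2 fold change 0.55, SE 0.35, adjusted p = 0.679), Ndufv2 (log2 fold change -0.22, SE 0.14, adjusted p = 0.688) and Ndufs1 (log2 fold change -0.13, SE 0.086, adjusted p = 0.702). The 0ND and 8ND values of all 90 overlapped, where 2.15% of all genes were higher and 1.8% lower without overlap. DESeq2 and limma-voom also called 0.

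In 8P vs 0P again 0 of 90 members passed, beside 0% of all genes, and 17 of 90 had an unadjusted p under 0.05 (all genes: 2093 of 20787). Values of the nuclear members nevertheless leaned 1 way: 75 of 79 were below 0, with a median of -0.29, where the median of all genes was 0.0053. By complex the medians were -0.30 in I, -0.13 in II, -0.30 in III, -0.32 in IV and -0.25 in V. These medians carry no test, and subunits of the same libraries are not independent of each other. For a single nuclear member the standard error had a median of 0.18. The groups did not overlap for 3 lower and 1 higher member (all genes: 0.89% and 1.36%). The 1 higher member was Ndufb2, at 13.8 to 16.1 CPM in 0P and 17.9 to 22.6 in 8P (log2 fold change 0.42, SE 0.13, adjusted p = 0.456). The lower ones were Atp5b (315 to 358 CPM in 0P and 233 to 309 in 8P), Atp5g3 and Ndufa10. Ndufa10, an accessory subunit of complex I, was at 62.6, 60.8, 59.9 and 58.4 CPM in 0P and 46.9, 48.6, 50.5, 56.5 and 49.6 in 8P (log2 fold change -0.26, SE 0.097, adjusted p = 0.465). Atp5g3 was at 49.8, 54.1, 58.7 and 54.6 in 0P and 42.2, 48.5, 35.8, 43.6 and 31.6 in 8P (log2 fold change -0.43, SE 0.16, adjusted p = 0.465). DESeq2 and limma-voom called 0 members here too.

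Whether the change from ND to P differed between doses was tested as an interaction, the effect of dose in P minus that in ND. Of 90 members 0 passed, beside 0% of all genes, and 3 of 90 had an unadjusted p under 0.05, beside 2163 of 20787 genes (DESeq2 and limma-voom: 0 passed). The larger number of falls in 8P vs 8ND is thus not shown to be a difference between doses for any single member. Interaction values were below 0 for 72 of 79 nuclear members, with a median of -0.24 beside -0.013 over all genes and a median standard error of 0.26. Among the smallest nuclear p-values were those of Ndufb2 (log2 fold change 0.60, SE 0.19, adjusted p = 0.327), Ndufa2 (log2 fold change -0.77, SE 0.37, adjusted p = 0.485) and Atp5d (log2 fold change -0.51, SE 0.25, adjusted p = 0.495). For complex II the 4 interaction values ran from -0.26 to -0.01. Among mitochondrially encoded members mt-Co3 had the most extreme value (log2 fold change -2.68, SE 0.99, adjusted p = 0.374) on 367 counts in all, and 0P 4 was at 9.99 CPM beside 0.460 to 1.67 in the other 0P libraries.

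Other mitochondrial genes were read from lists, to place the subunits beside the machinery around them. The shares of all genes to set beside the counts were 15.7% lower and 15.9% higher in 0P vs 0ND. In 8P vs 8ND they were 14.3% and 13.9%. In fatty acid oxidation, 10 of 14 genes fell and 0 rose in 0P vs 0ND (median -0.68), and 9 fell and 1 rose in 8P vs 8ND (median -0.51). Hadhb, of the trifunctional protein, changed by -0.89 (SE 0.12, adjusted p = 2.3e-05) and -0.50 (SE 0.11, adjusted p = 0.00194). In the citrate cycle and pyruvate dehydrogenase, 8 and 10 of 19 fell and 0 rose, and Cs, citrate synthase, changed by -0.78 (SE 0.11, adjusted p = 2.56e-05) and -0.77 (SE 0.098, adjusted p = 1.86e-05). Among electron carriers and genes of ubiquinone synthesis, 10 of 22 fell and 1 rose in 0P vs 0ND, and 7 fell and 0 rose in 8P vs 8ND. Pdss1, which makes the ubiquinone side chain, changed by -1.39 (SE 0.18, adjusted p = 1.09e-05) and -1.10 (SE 0.16, adjusted p = 5.05e-05).

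Lists of assembly factors, DNA upkeep, RNA handling and ribosomal proteins had medians between -0.10 and 0.17. Their counts stand beside 15.9% of all genes that rose and 15.7% that fell in 0P vs 0ND, and 13.9% and 14.3% in 8P vs 8ND. For complex I assembly, 1 rose and 1 fell of 15 in 0P vs 0ND and 0 rose and 1 fell in 8P vs 8ND. For complex II to V assembly, 2 rose and 5 fell of 34 and then 1 rose and 5 fell. Sdhaf1, an assembly factor of complex II, rose by 0.95 (SE 0.22, adjusted p = 0.00252) and 0.60 (SE 0.20, adjusted p = 0.0282), where the 4 subunits of that complex fell, and Cox10, an assembly factor of complex IV, changed by -0.69 (SE 0.23, adjusted p = 0.0281) and -1.18 (SE 0.21, adjusted p = 0.000372). Of 16 genes of mitochondrial DNA upkeep and transcription, 2 rose and 1 fell and then 1 rose and 1 fell, and Polg2, the accessory subunit of the mitochondrial DNA polymerase, was at -1.11 (SE 0.19, adjusted p = 0.000189) and -0.32 (SE 0.17, adjusted p = 0.171). Ssbp1, which coats single-stranded mitochondrial DNA, rose by 0.53 (SE 0.13, adjusted p = 0.00473) and 0.70 (SE 0.12, adjusted p = 0.000289). Of 14 genes of mitochondrial RNA handling, 2 rose and 2 fell and then 1 rose and 3 fell, with Fastkd1 at -0.83 (SE 0.12, adjusted p = 5.54e-05) and -0.82 (SE 0.11, adjusted p = 3.52e-05). Of 77 tested mitochondrial ribosome genes, which are also nuclear, 6 rose and 3 fell in 0P vs 0ND (median 0.17), and 2 rose and 6 fell in 8P vs 8ND (median -0.08). Both directions were rarer than among all genes.

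**Figure D5:**
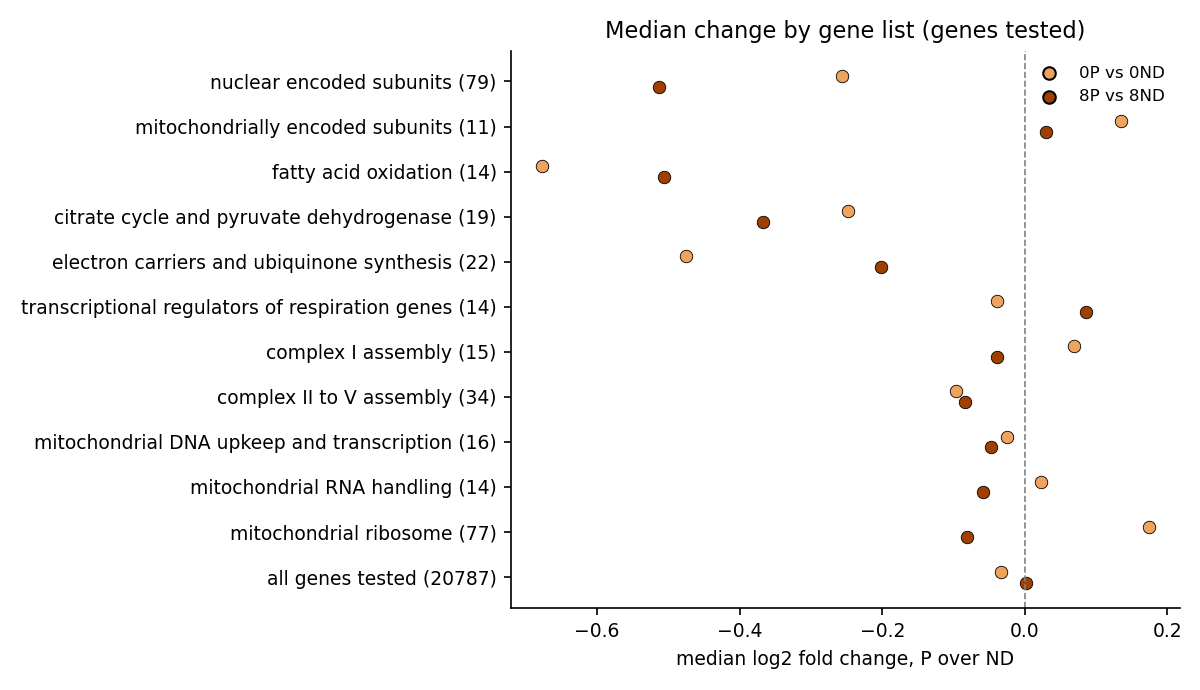
Each row is a gene list with the number of genes tested, and the points are its median log2 fold change in 0P vs 0ND and 8P vs 8ND. Nuclear subunits (-0.26 and -0.51), fatty acid oxidation (-0.68 and -0.51), the citrate cycle (-0.25 and -0.37) and electron carriers (-0.47 and -0.20) lie left of the other lists, whose medians are between -0.10 and 0.17.

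Of 14 transcriptional regulators of respiration genes, 2 rose and 6 fell in 0P vs 0ND, and 2 rose and 4 fell in 8P vs 8ND. Over all genes 15.9% rose and 15.7% fell in the first comparison, and 13.9% and 14.3% in the second. Ppargc1b, a coactivator of mitochondrial genes, changed by -2.02 (SE 0.21, adjusted p = 2.44e-06) and -1.63 (SE 0.19, adjusted p = 9.59e-06). Ppara, a receptor that drives fatty acid oxidation genes, changed by -1.90 (SE 0.30, adjusted p = 7.52e-05) and -1.87 (SE 0.27, adjusted p = 4.91e-05), and Myc rose by 1.5 (SE 0.16, adjusted p = 2.79e-06) and 0.73 (SE 0.14, adjusted p = 0.0008). What part these regulators had in the subunit levels was not tested.

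Markers of some other cells moved with the same groups. For scale, 15.7% of all genes fell and 15.9% rose in 0P vs 0ND, and 14.3% and 13.9% in 8P vs 8ND. Besides smooth muscle, B and plasma cell markers fell (4 of 10 in 0P vs 0ND and 6 of 10 in 8P vs 8ND), with summed ranges of 2716 to 5143 CPM in 0ND, 1048 to 1510 in 0P, 3990 to 9912 in 8ND and 516 to 3387 in 8P. Epithelial markers fell too, 5 of 10 and 7 of 10, with 1 rising in each, and summed to 4504 to 5727 CPM in 0ND, 3534 to 5071 in 0P, 3950 to 5832 in 8ND and 3306 to 3972 in 8P. Of 6 tested neutrophil markers 4 rose and 1 fell (Ly6g) in each comparison, while Elane had 0 counts in every library, and summed to 19.4 to 30.9 CPM in 0ND, 29.7 to 43.2 in 0P, 17.4 to 27.8 in 8ND and 22.4 to 86.9 in 8P. Of 10 endothelial and pericyte markers 5 fell in each comparison, and 2 rose in 0P vs 0ND. Of 10 fibroblast and matrix markers 4 rose and 3 fell in 0P vs 0ND, and 1 rose and 2 fell in 8P vs 8ND. Of 10 macrophage and dendritic markers 2 rose and 0 fell in 0P vs 0ND, and 0 passed in 8P vs 8ND. Of 7 tested T and NK cell markers 1 rose and 2 fell in 0P vs 0ND, and 1 rose and 1 fell in 8P vs 8ND. Of 4 tested enteric glia and neuron markers 1 rose and 1 fell in 0P vs 0ND, and 1 rose and 0 fell in 8P vs 8ND. The part of these cell types in the subunit values was not tested.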

How the data were processed

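Deposited files were tables of read counts per gene, which the authors made with Bowtie on mm10 and HTSeq (versions and strand setting not given in the sources used here). The methods name RefSeq genes, yet 54512 of 55453 names occur in GENCODE M21. Bowtie does not split reads over introns, so reads across exon junctions of nuclear genes could be missed while mitochondrial genes have no introns. The 5 summary lines of each table were left out of library sizes and tests, and gave the shares of reads on no gene or without a unique alignment. The 18 libraries were fitted together with edgeR 4.0.16 in R 4.3.3 (TMM, filterByExpr with a minimum count of 10, robust quasi-likelihood test), with Benjamini-Hochberg adjustment over 20787 genes and an adjusted p under 0.05 as the threshold. The 4 group comparisons and the interaction of dose with lesion were contrasts of this fit. On simulated counts with 1 spread for all genes, 0P vs 0ND recovered 48% of 2-fold and 100% of 4-fold changes, with 6 false calls. Changes were set only in genes above a floor on the mean level. The shares recovered do not cover members below it, such as Cox7a1 (mean 1.46 CPM). Smaller changes, the dose comparisons and the interaction were not simulated, so members that did not pass can still differ. Each standard error is the absolute log2 fold change over sqrt(F). Alternatives used DESeq2 1.42.0, limma 3.58.1 (voom), other scalings and filters, left-out libraries and a replicate block. The principal component used log2(CPM + 1). Total counts of 3500947 to 17048524 set the precision.

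Named were all mitochondrially encoded and all Sdh genes, the 6 highest and 6 lowest log2 fold changes past the threshold in 0P vs 0ND and in 8P vs 8ND, the 4 smallest p-values for dose (in ND, in P and for the interaction), the 2 genes per complex with the highest CPM per kb, the isoform lists, and, of each context list, genes among the 3 smallest p-values in either comparison of P with ND. Of the genes this rule takes, 1 is not reported here. Uqcrc2 and Ndufb4c were named after their values were seen. Members and lists were chosen with earlier results of these data known. Gene positions and transcripts came from GENCODE M21, with lengths taken over merged exons, and promoters from RefSeq GRCm38.p6.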

Additional observations from a re-analysis of the deposited data

Results flagged for a closer look

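In each group of 4 or 5 libraries, the highest and lowest library was compared with its nearest neighbour by Dixon's gap ratio, for single members and for their sums. Of 200 groups 12 held a library set apart, which is 6%, and chance gives about 5%. None of these 12 values was explained or tested further.

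Library 8P 4 was high in 6 of them. It had 85.4 CPM for Cox7b beside 50.9 to 54.3 in the other 8P libraries, 156 CPM for Sdha beside 118 to 122, and 57.5 CPM for Uqcrb beside 38.9 to 43.9. Its mt-Atp8 level was 1018 CPM beside 236 to 313, and its mt-Nd6 level was 994 CPM beside 331 to 487. Its summed complex II level was 270.4 CPM beside 218 to 231.

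Library 0P 4 had a summed level of nuclear complex V genes of 1736 CPM beside 1364 to 1390 in the other 0P libraries, and a level of mt-Co3 of 9.99 CPM beside 0.460 to 1.67. Library 0ND 1 had a low summed level of all members, 11794 CPM beside 14423 to 14576, and a low mt-Nd4 level, 494 CPM beside 634 to 646. Library 0ND 3 had a high mt-Nd5 level, 1920 CPM beside 1475 to 1533. Library 8P 2 had a ratio of nuclear to mitochondrial summed levels of 0.491 beside 0.282 to 0.334.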

How the results depend on the processing

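Counts of called subunits stayed within 1.5 times their value in the report in 190 alternatives and moved further in 12. The 190 include the dose comparisons and the interaction, where every count was 0, so they say little about stability. All 12 were among the counts for P vs ND. Each class was counted there under 18 settings in 0P vs 0ND and 21 in 8P vs 8ND, the report's own included. None of the 38 named calls changed sign, whereas values of named genes near 0 that did not pass, such as mt-Cytb and Ndufv2 in 8P vs 8ND, did under some alternatives. Nuclear subunits past the threshold numbered 19 in 0P vs 0ND and 42 in 8P vs 8ND as reported, 18 and 42 by DESeq2, and 17 and 42 by limma-voom. With 1 library left out they ranged from 12 (without 0P 3) to 25 (without 0ND 1) in 0P vs 0ND, and from 33 to 54 in 8P vs 8ND. Leaving out 8ND 1 and 8ND 2 together gave 46 in 8P vs 8ND. Mitochondrially encoded genes past the threshold numbered 1 in 0P vs 0ND, and 0 under a minimum count of 50, because mt-Atp6 was then not tested. In 8P vs 8ND they numbered 1, and 0 without a filter on low counts, with only the groups compared in the fit, and with the replicate block. With 1 library left out they ranged from 0 (without 8ND 1, 8ND 3, 8ND 5, 8P 2, 8P 3 or 8P 5) to 2 (without 8P 4). For these changes the cause was not tested. The dose comparisons and the interaction stayed at 0 under each alternative.

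The labels number replicates alike in the groups, so a replicate block was also fitted. It gave 14 nuclear calls in 0P vs 0ND and 32 in 8P vs 8ND, and 1 and 0 mitochondrial calls. Deviations from the group means of same-numbered ND and P libraries correlated at -0.079 to 0.27, and 4 of 9 pairs matched their own number best. Since not every pair correlated above 0.1, the numbers were not taken as pairs, and whether some of these libraries share an animal or batch was not settled.

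Of 38 named subunit calls, 28 held under each alternative in which the gene was tested and 10 were lost under some, with adjusted p up to 0.13. Under a minimum count of 50, mt-Atp6, Cox6b2 and Cox7a1 were not tested. Losses not already described were Cox5b (lost without a filter and with the block) and Ndufs1 (without a filter), both in 8P vs 8ND, and Cox7a2l in 8P vs 8ND, and Cox7b was also lost without a filter and with only the groups compared. The median over mitochondrially encoded genes changed sign between alternatives, from -0.13 to 0.13 in 8P vs 8ND and from -0.12 to 0.07 in 8ND vs 0ND, while that of the nuclear genes stayed between -0.36 and -0.18 in 0P vs 0ND and between -0.61 and -0.44 in 8P vs 8ND. Scaling alternatives moved the median of all genes to at most 0.06. Fewer than 400 counts in 18 libraries limit what can be said of mt-Co2, mt-Co3, mt-Nd3 and mt-Nd4l. The same holds for mt-Atp6, with 704 counts.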

Other observations

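Across the 79 tested nuclear members, Spearman's rho between mean CPM and log2 fold change was -0.24 in 0P vs 0ND and -0.05 in 8P vs 8ND, beside 0.07 and 0.06 over all tested genes, and all these points share the same libraries. The 5 names with a pseudogene number that the rule took (Atp5k-ps2, Atp5l-ps1, Atp5l-ps2, Uqcrh-ps1 and Uqcrh-ps2) had 1 to 5 counts each in the 18 libraries. The 5 tested copies of mitochondrial genes on chromosome 1 showed median values of -0.07 (0P vs 0ND) and -0.41 (8P vs 8ND) on the log2 scale, and 0 of the 5 passed in either comparison.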
